A study of Mus musculus with 4 samples.

Results

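Calcineurin is the calcium-activated protein phosphatase that drives NFAT transcription factors into the nucleus. The genes described here are 10 of the 23337 gene rows of a count table from mouse embryonic cardiac cushions, chosen by symbol: the NFAT factors Nfatc1, Nfatc2, Nfatc3, Nfatc4 and Nfat5, the calcineurin subunits Ppp3ca, Ppp3cb and Ppp3r1, and the calcineurin inhibitors Rcan1 and Rcan2. Each of the 10 had a row, and each passed the filter on low counts. Total RNA was sequenced from cushions of the outflow tract and atrioventricular canal of C57BL/6 embryos. All were taken at embryonic day 14.5, and 2 libraries came from wildtype embryos and 2 from Nfatc1Cre;Brg1F/F mutants. In the mutants, Brg1 (gene symbol Smarca4), the ATPase of a chromatin remodelling complex, is deleted where Nfatc1-Cre acts, in the endocardium and its descendants. The wildtype embryos were littermates, and the series describes the samples as paired. The protocol given for every library isolated the tissue by the GFP of a Cre reporter, but the labels do not say which alleles the wildtype embryos carried, how the Cre was built, or how many embryos a library held. The p-values thus rest on the variation among 4 libraries alone, part of which may be technical.

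As background, a rise in cell calcium activates calcineurin. The phosphatase then removes phosphates from NFATc proteins, which enter the nucleus and act there with partner factors until kinases return them to the cytoplasm. In the heart, Nfatc1 is a marker of the endocardium, and mouse embryos without it fail to form normal semilunar valves. Rcan1 is itself switched on by NFAT and inhibits the phosphatase, which closes a feedback loop. Nfat5 shares the DNA-binding fold but responds to osmotic stress and is not controlled through the calcineurin docking region.

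Gene rows held 14104458 to 22426537 reads per library. Where 2 values are given for a genotype, they are those of replicate 1 and then replicate 2. Smarca4, the targeted gene, measured 251 and 231 CPM (read counts scaled to a common library size by TMM) in wildtype embryos against 282 and 239 CPM in mutants, so the whole-gene count showed no fall that would check the labels. Reads of 4 Y-linked genes (Kdm5d, Eif2s3y, Uty and Ddx3y) summed to 8400 in mutant replicate 2 and to 0, 72 and 0 in wildtype 1, wildtype 2 and mutant 1, so pair 2 differs in sex as well as in genotype. Markers of endocardium and cushion mesenchyme were present, as the label has it, and those of cardiomyocytes were abundant. The 16 endocardial and endothelial markers summed to 1691 to 1800 CPM, the 14 cushion mesenchyme markers to 7328 to 8273 CPM and the 14 cardiomyocyte markers to 61061 to 78423 CPM.

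No change of the pathway's own transcripts was detected in the Brg1 mutant cushions. Of the 10 genes, 0 passed an adjusted p of 0.05 in edgeR's quasi-likelihood test over all 14316 tested genes, of which 0.0629% passed. None of the 10 was under 0.05 before adjustment either, where 5.78% of tested genes were. DESeq2, limma-voom and DESeq2 with the replicate number as a block called 0 of the 10, as did edgeR with that block, which called 0.887% of all tested genes. Log2 fold changes (mutant over wildtype) ran from -0.18 for Nfatc1 to 0.36 for Nfatc4, with 5 genes above and 5 below 0 and a median of -0.0039, against -0.0027 for all tested genes. The median size of a fold change, without its sign, was 0.063 on the log2 scale, against 0.14 for all tested genes. These medians were not matched for level. The 10 genes had 178 to 9475 reads per library, and the tested genes include many with fewer reads and larger standard errors. Each of the 10 intervals of 95% lay within a 2-fold change in either direction. In 1 of the 10, Nfatc2, the genotypes did not overlap, as was so for 33.2% of tested genes.

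**Figure D1:**
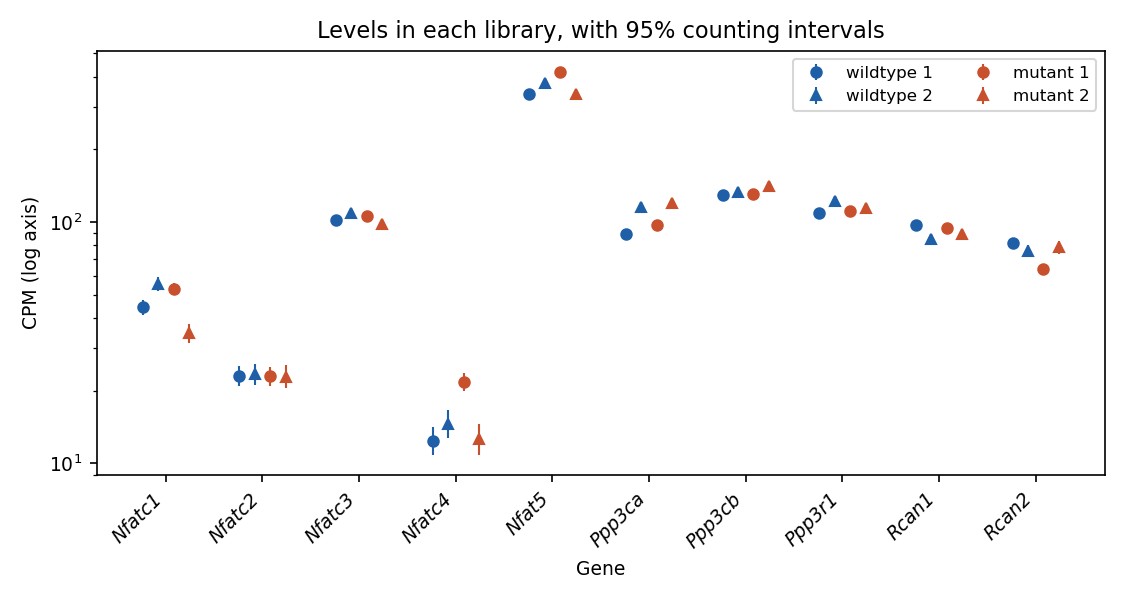
Level of each gene in CPM, on a log axis, in the 4 libraries, with bars for the 95% counting interval (exact Poisson, counting error only). Nfatc1 is lowest in the second mutant library, at 34.5 CPM, and Nfatc4 is highest in the first, at 21.8 CPM; the other genes vary less between libraries.

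The catalytic subunits of calcineurin were close in both genotypes. Ppp3cb, the catalytic beta subunit (GRCm38 chromosome 14, 20499364 to 20546573, minus strand), measured 129 and 134 CPM in wildtype embryos against 130.5 and 140.5 CPM in mutants. The groups overlapped, and the log2 fold change was 0.04 ± 0.12 (SE; edgeR adjusted p = 0.990). Ppp3ca, the catalytic alpha subunit (chromosome 3, 136670124 to 136937727, plus strand), measured 89.2 and 115 CPM in wildtype embryos against 96.9 and 120.3 CPM in mutants. For Ppp3ca the libraries numbered 2 were the higher ones in both genotypes, by 0.37 log2 CPM in wildtype and 0.31 in mutant, while the genotype difference was 0.09 ± 0.17 (edgeR adjusted p = 0.985). The third catalytic gene, Ppp3cc, which is no member and is named here, outside the rule for naming genes, to complete the family, had 13.3 to 15.98 CPM over the libraries and a log2 fold change of 0.01.

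Ppp3r1 encodes a calcium-binding regulatory B subunit of calcineurin (chromosome 11, 17159263 to 17200375, plus strand). It measured 109 and 122 CPM in wildtype embryos against 111 and 114 CPM in mutants. Both mutant values lay between the wildtype values, and the log2 fold change was -0.04 ± 0.13 (edgeR adjusted p = 0.990). Its exons share 462 bases with those of Wdr92 on the same strand, where reads cannot be assigned to 1 gene.

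Among the calcineurin-regulated factors, Nfatc3 was the most abundant. Nfatc3 (chromosome 8, 106058840 to 106130537, plus strand), which is broadly expressed, measured 101 and 109 CPM in wildtype embryos against 106 and 97.7 CPM in mutants, with a log2 fold change of -0.05 ± 0.13 (edgeR adjusted p = 0.988). It shares 219 exon bases with Esrp2 on the opposite strand, and the strand setting of the counting is not given in the sources used here. Nfatc2 (chromosome 2, 168476410 to 168601657, minus strand), best known from lymphocytes, was the steadiest of the genes. It measured 23.1 and 23.4 CPM in wildtype embryos against 22.9 and 22.9 CPM in mutants. The groups did not overlap, but the difference was small, at -0.02 ± 0.16 on the log2 scale (edgeR adjusted p = 0.994).

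Nfatc1 (chromosome 18, 80606205 to 80713071, minus strand) varied between libraries of the same genotype. It measured 44.3 and 55.2 CPM in wildtype embryos, from 831 and 874 reads, against 53.0 and 34.5 CPM in mutants, from 1204 and 489 reads. The mutant libraries took the lowest value and one inside the wildtype range, and so the groups overlapped. Their counting intervals, 50.0 to 56.1 CPM in the first and 31.5 to 37.7 CPM in the second mutant library, did not meet. The mutants carry Nfatc1-Cre, and the labels say neither how it was built nor which alleles the wildtype embryos carried. Any effect of the Cre allele on this count thus cannot be told apart from that of Brg1 loss. The log2 fold change was -0.18 ± 0.21 (edgeR adjusted p = 0.979), with a 95% interval from -0.66 to 0.30, that is, from 0.632-fold to 1.24-fold. Without mutant replicate 1 it was -0.53, with an unadjusted p of 0.00634 and an edgeR adjusted p of 0.240, and without mutant replicate 2 it was 0.10.

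Nfatc4 (chromosome 14, 55823144 to 55833943, plus strand), a factor with known roles in heart and vessel development together with Nfatc3 in mice, had the largest fold change of the 10. It measured 12.4 and 14.6 CPM in wildtype embryos against 21.8 and 12.6 CPM in mutants. Mutant replicate 1 alone stood above the other libraries, its counting interval being 19.9 to 23.8 CPM against an upper bound of 16.6 CPM or less in each of the others. The log2 fold change was 0.36 ± 0.26 (edgeR adjusted p = 0.961). Without mutant replicate 2 it was 0.70 and passed (edgeR adjusted p = 0.0432), in a fit that called 3.0% of tested genes; without mutant replicate 1 it was -0.10. Nfatc1 and Nfatc4 were the 2 of the 10 genes whose mutant libraries lay more than 0.5 log2 CPM apart, which 16.3% of tested genes did; the wildtype libraries lay that far apart for 0 of the 10 and for 13.2% of tested genes. The mutant libraries also differ in sex. Without mutant replicate 1, genotype and sex cannot be told apart, and the part of sex in these values was not tested.

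Nfat5 (chromosome 8, 107293470 to 107379517, plus strand), the tonicity-responsive member, had the most reads, 4807 to 9475 per library. It measured 339 and 377 CPM in wildtype embryos against 417 and 339 CPM in mutants. The groups overlapped, with the highest value in mutant replicate 1, and the log2 fold change was 0.08 ± 0.15 (edgeR adjusted p = 0.985).

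Rcan1, the feedback inhibitor of calcineurin (chromosome 16, 92391953 to 92470867, minus strand), is often read as a gauge of NFAT activity, because one of its starts responds to NFAT. Its row merges transcripts from 2 RefSeq starts, an outer one and an inner one within the gene. The 250 bases before each start (RefSeq, GRCm38.p6; chr16:92466170-92466419 and chr16:92400079-92400328, minus strand) are shown because the counts cannot tell these starts apart. Capitals mark GGAAA, the core that NFAT proteins bind, or its reverse complement TTTCC.
Rcan1 outer start: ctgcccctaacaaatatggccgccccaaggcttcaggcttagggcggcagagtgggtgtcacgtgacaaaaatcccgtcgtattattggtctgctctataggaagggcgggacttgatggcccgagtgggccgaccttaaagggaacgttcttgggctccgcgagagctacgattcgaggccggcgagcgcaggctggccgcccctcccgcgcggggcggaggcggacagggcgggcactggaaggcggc
Rcan1 inner start: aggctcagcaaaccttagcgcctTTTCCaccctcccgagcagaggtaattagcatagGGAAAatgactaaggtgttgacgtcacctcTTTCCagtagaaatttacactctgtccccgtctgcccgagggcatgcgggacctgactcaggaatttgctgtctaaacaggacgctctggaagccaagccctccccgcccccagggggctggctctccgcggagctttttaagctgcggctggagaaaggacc
The inner window held 3 matches on either strand and the outer window 0. Of 32851 promoter windows of that length, 55.6% held at least 1 match and 6.39% at least 3, so a match is a description and no site of binding. Of the other genes, windows were at hand for Nfatc2, Nfatc3, Nfatc4, Nfat5, Ppp3cb, Ppp3r1 and Rcan2, and over the 13 windows of 8 genes, Rcan1 included, 8 held a match. No window was used for Nfatc1 and Ppp3ca.

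The level of Rcan1 over both starts was nearly the same in the 2 genotypes. It measured 97.0 and 84.8 CPM in wildtype embryos against 94.8 and 88.8 CPM in mutants. Both mutant values lay inside the wildtype range. The log2 fold change was 0.01 ± 0.13 (edgeR adjusted p = 0.995), with a 95% interval from 0.820-fold to 1.24-fold. A shift between the starts at a constant sum would not appear in these counts.

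Rcan2, the related inhibitor expressed in heart, brain and other tissues (chromosome 17, 43801351 to 44039516, plus strand), measured 81.5 and 75.5 CPM in wildtype embryos against 63.6 and 78.4 CPM in mutants. Mutant replicate 1 was the lowest, and mutant replicate 2 lay within the wildtype range. The log2 fold change was -0.15 ± 0.15 (edgeR adjusted p = 0.979). Rcan3, the third of these inhibitors and no member, is likewise named outside that rule to complete the family; it had 18.1 to 23.6 CPM and a log2 fold change of -0.02.

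**Figure D2:**
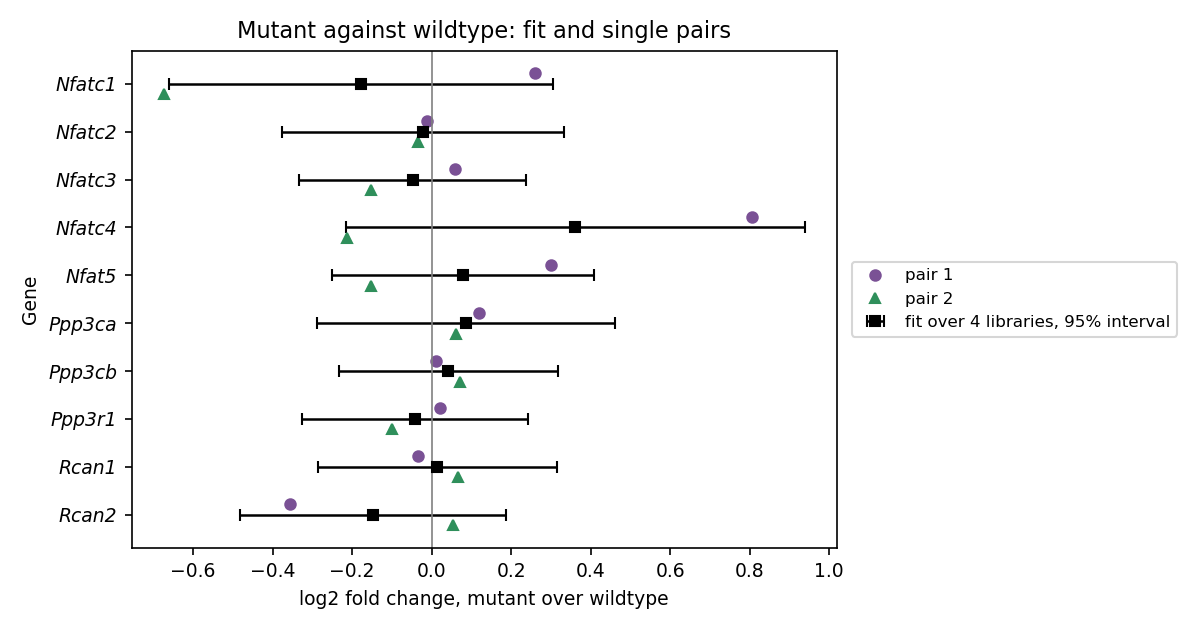
Log2 fold change, mutant over wildtype, of each gene: squares with 95% intervals from the edgeR fit over 4 libraries, circles for pair 1 and triangles for pair 2. Every interval includes 0, and the pairs lie farthest apart for Nfatc4, at 0.81 and -0.21, and Nfatc1, at 0.26 and -0.67.

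Taken by pairs of the same replicate number, 7 of the 10 genes had opposite signs in the 2 pairs, against 51.6% of all tested genes. Nfatc1 was at 0.26 in pair 1 and -0.67 in pair 2 on the log2 scale. Nfatc4 was at 0.81 and -0.21, and Rcan2 at -0.36 and 0.05. The genes with 1 sign in both pairs were Nfatc2, at -0.01 and -0.03, Ppp3ca, at 0.12 and 0.06, and Ppp3cb, at 0.01 and 0.07. With the replicate block the fold changes of Nfatc1 and Nfatc4 were -0.20 and 0.32. The authors' deposited table has a row for each of the 10 genes. None passes its adjusted threshold, and the lowest unadjusted p there is 0.192, for Nfatc4. The fold change of Nfatc1 in the authors' deposited table, taken as mutant over wildtype, is -0.20.

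Per exon length, Nfatc1, Nfatc4 and Nfatc2 stood below Ppp3ca, Ppp3cb, Ppp3r1, Rcan1 and Rcan2, while Nfatc3 stood near Ppp3ca and Rcan2. Other subunit and inhibitor genes, such as Ppp3cc and Rcan3, were not put on this scale. In CPM per kb of RefSeq-linked exon, averaged over the 4 libraries, Ppp3r1 was at 39.8, Rcan1 at 36.5, Ppp3cb at 34.8, Nfat5 at 27.5, Ppp3ca at 22.02, Rcan2 at 19.0, Nfatc3 at 17.3, Nfatc1 at 6.29, Nfatc4 at 3.82 and Nfatc2 at 2.76. The library ranges of Ppp3r1, Rcan1 and Ppp3cb overlapped from one to the next, as did those of Ppp3ca, Rcan2 and Nfatc3 and those of Nfatc1 and Nfatc4. Within the 4 NFATc genes, Nfatc3 made up 53.6% to 60.9% of the summed level per length, and Nfatc1 20.7% and 23.2% in wildtype and 21.7% and 17.3% in mutant replicates 1 and 2. These shares depend on the gene model: over the exons of every transcript, Nfatc3 made up 40.9% to 48.2% and Nfatc1 26.7% to 34.5%. Nfatc4 made up 10.7% and 11.3% in wildtype and 16.5% and 11.7% in mutant. These shares did not overlap, but mutant replicate 2 was only slightly above wildtype replicate 2. In CPM per kb itself Nfatc4 overlapped, at 3.09 and 3.63 in wildtype and 5.42 and 3.13 in mutant. Nfatc1, which is part of the same sum, was lowest in mutant replicate 2, at 4.65. By level, the groups did not overlap for 33.2% of all tested genes. Ppp3ca made up 35.5% to 40.8% of the sum of Ppp3ca and Ppp3cb.

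**Figure D3:**
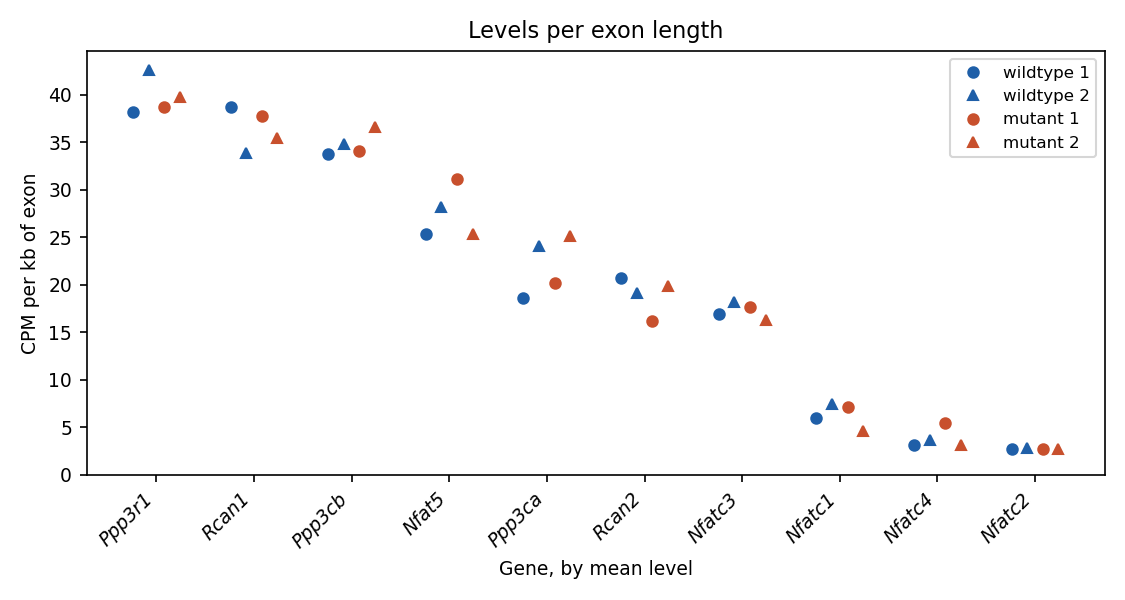
Level of each gene per exon length, in CPM per kb, in the 4 libraries, ordered by the mean. Ppp3r1, Rcan1 and Ppp3cb lie at 33.8 to 42.6, and Nfatc1, Nfatc4 and Nfatc2 at 2.73 to 7.42.

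Genes around the pathway were read from lists of upstream, nuclear and target genes, against the 0.0629% of all tested genes that passed. The share of all tested genes was 5.78% under an unadjusted 0.05, 0.433% by DESeq2, 0.0489% by limma-voom and 0.887% with the replicate block. By edgeR's quasi-likelihood test 0 genes passed in each of these 6 lists; limma-voom called 0 in each, and with the replicate block 1 gene passed, Ccl2. Of 17 tested calcineurin subunits and regulators, 1 was higher before adjustment (p under 0.05), and DESeq2 called that gene. This was Akap12, a scaffold protein that binds signalling enzymes, at 285 and 282 CPM in wildtype embryos against 449 and 449 CPM in mutants. Its mutant values lay above both wildtype values, with a log2 fold change of 0.66 ± 0.12 and an adjusted p of 0.143 by edgeR, 0.0746 with the block and 0.00185 by DESeq2. Ppia, the cyclophilin through which ciclosporin blocks calcineurin, was among the most abundant of that list, with a log2 fold change of 0.0029.

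Of 16 tested genes, mostly kinases and export factors that return NFAT to the cytoplasm, 0 were under an unadjusted 0.05 and 0 were called by DESeq2. The median was -0.01, and the nuclear exporter Xpo1 and the casein kinase Csnk1a1 were at -0.0042 and -0.16. Of 17 genes of calcium entry, 1 was higher and 1 lower at that level, where 5.78% of all tested genes were, with 0 called by DESeq2. Tnfrsf11a, the receptor RANK that induces Nfatc1 in osteoclasts, measured 3.30 and 3.85 CPM in wildtype embryos against 6.69 and 5.86 CPM in mutants, with a log2 fold change of 0.82 ± 0.25 and an edgeR adjusted p of 0.514. Trpc6, a cation channel, measured 9.16 and 10.7 CPM in wildtype embryos against 6.43 and 6.07 CPM in mutants, with a log2 fold change of -0.67 ± 0.21 and an edgeR adjusted p of 0.545. The calcium release channel Itpr1 and the VEGF receptor Kdr, the most abundant of that list, were at 0.06 and -0.02. Of 17 tested nuclear partners of NFAT, 0 were under an unadjusted 0.05 and 0 were called by DESeq2, with Mef2a at -0.16 and Mef2c at 0.05.

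Of 19 tested genes reported as targets of calcineurin and NFATc proteins in other cells, 5 were higher and 2 lower before adjustment (p under 0.05), against 5.78% of all tested genes in either direction, with a median of 0.04; 1, Ccl2, was called by DESeq2 and with the block. Ccl2, a monocyte chemokine, measured 1.65 and 2.40 CPM in wildtype embryos against 7.22 and 11.1 CPM in mutants. Its log2 fold change was 2.17 ± 0.32, with an adjusted p of 0.0654 by edgeR and 2.126e-04 with the block. Ctsk, the protease cathepsin K, a target of NFATc1 in osteoclasts, measured 12.2 and 15.0 CPM in wildtype embryos against 6.998 and 7.49 CPM in mutants. Both mutant values were below both wildtype values, at -0.91 ± 0.20, with an adjusted p of 0.207 by edgeR, 0.0766 with the block and 0.143 by DESeq2. Trpc6, already counted under calcium entry, was the other of the 2 lower genes. Myh7, the most abundant of these genes, a cardiac myosin, was at -0.02, and the protease gene Adamts1 at 0.34 ± 0.12 (edgeR adjusted p = 0.696). The osteoclast markers in which Ctsk also stands were sparse, with 5 of 8 under 1 CPM on average.

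Of 10 tested tonicity targets of Nfat5, 3 were higher and 1 lower before adjustment (p under 0.05), against the same 5.78% of all tested genes; 0 were called by DESeq2 or with the block, and the median was 0.02. The inducible heat shock gene Hspa1b measured 1.17 and 0.884 CPM in wildtype embryos against 3.39 and 2.54 CPM in mutants (log2 fold change 1.53 ± 0.37, edgeR adjusted p = 0.267). The kinase gene Sgk1 and the glucose transporter gene Slc2a1 were at 0.63 and 0.34, with edgeR adjusted p of 0.680 and 0.747. The amino acid transporters Slc38a2 and Slc38a1, the most abundant of that list, were at -0.01 and 0.05.

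**Figure D4:**
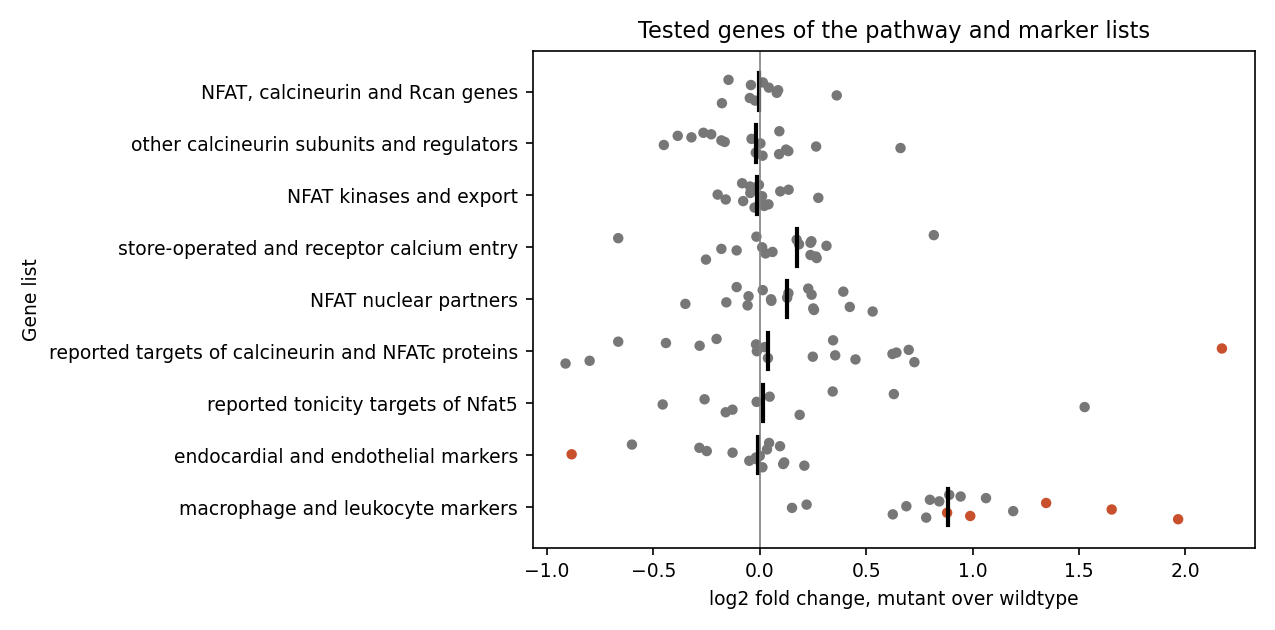
Log2 fold change, mutant over wildtype, of each tested gene in the lists, with a black bar at the median; orange points passed an adjusted p of 0.05 in the edgeR fit with the replicate block. The NFAT, calcineurin and Rcan genes lie between -0.18 and 0.36, and the leukocyte markers, with a median of 0.89, lie to the right of 0.

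Marker sums of the cell types that can carry these genes stand beside these values. In bulk tissue fewer cells of a type cannot be told apart from less RNA per cell. The 16 endocardial and endothelial markers summed to 1770 and 1800 CPM in wildtype embryos against 1691 and 1743 CPM in mutants. Over these sums, Nfatc1 stood at 2.50 and 3.06 CPM per 100 CPM of marker in wildtype and 3.13 and 1.98 in mutant, so the groups overlapped on this scale too. Tek and Cdh5, the most abundant endothelial markers, were at 0.11 and 0.01 on the log2 scale, and the median of the 16 was -0.0081. Npr3, an endocardial receptor that clears natriuretic peptides, was at -0.88 ± 0.12. Its adjusted p was 0.0654 by edgeR and 0.00646 with the block. Npr3 measured 243 and 229 CPM in wildtype embryos against 124 and 132 CPM in mutants, a larger fall than that of the summed markers. The lower marker sum in mutants thus rests on Npr3. Leukocytes can express Nfatc1 and Nfatc2 as well. The 16 macrophage and leukocyte markers with a row summed to 168 and 164 CPM in wildtype embryos against 249 and 283 CPM in mutants. Of them, 1 passed by edgeR, against 0.0629% of all tested genes, and 5 with the block, against 0.887%, all higher, among them the leukocyte phosphatase Ptprc, at 1.97 ± 0.18. The 9 lymphocyte markers were each under 1 CPM on average, and their sums of 1.26 to 1.70 CPM overlapped between the groups. The cardiomyocyte markers summed to 78423 and 69814 CPM in wildtype embryos against 61061 and 67210 CPM in mutants. Ttn alone measured 37497 and 34651 CPM in wildtype embryos against 29552 and 31334 CPM in mutants, so these sums lean on Ttn. The median log2 fold change of the 14 markers was -0.21, and Myl2 was highest in mutant replicate 2, at 4763 CPM. Of these 14 markers, 0 passed by edgeR and 1, lower in mutants, passed with the block, against 0.887% of all tested genes. DESeq2 called 2 of them, against 0.433%. The 7 erythroid markers with a row summed to 585 and 595 CPM in wildtype embryos against 848 and 650.2 CPM in mutants, and 1 of them passed with the block and by DESeq2, the red cell anion exchanger Slc4a1, with a log2 fold change of 0.97 ± 0.20. The 6 smooth muscle markers summed to 1285 and 1299 CPM in wildtype embryos against 1384 and 1416 CPM in mutants. Of these 6, 0 passed by edgeR, with the block or by DESeq2, and 1 was under an unadjusted 0.05 by edgeR. Acta2 alone measured 772 and 785 CPM in wildtype embryos against 874 and 872 CPM in mutants, while Cnn1 was at -0.18 on the log2 scale. The part of these shifts in the levels of Nfatc1, Nfatc2, Ccl2 and the other genes was not tested.

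The genes whose pattern over the 4 libraries was nearest to that of Nfatc1, by the distance between log2 CPM values centred on their means, were Npas3, Cd3eap and Gdpd5, at distances of 0.088, 0.101 and 0.101 among 8938 genes of at least 10 CPM. Npas3 measured 10.01 and 12.6 CPM in wildtype embryos against 12.9 and 8.26 CPM in mutants. With 4 libraries such likeness is loose, and 34 genes lay within a distance of 0.2.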

How the data were processed

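Per the submitters' processing notes, the authors used Bowtie2, TopHat2, SAMtools, HTSeq and edgeR with the mm10 build; no version is named, and the annotation and strand setting are not stated in those notes. The authors deposited raw counts per gene symbol and a table of their own edgeR comparison. Per the file headers, that table gives log2 fold changes, mean log2 CPM, a likelihood ratio score, p-values and, for some rows, a fold change as a ratio. Its signs are wildtype over mutant, by comparison with the counts, and were turned. Of each library's tally, 51.8% to 54.4% lay outside features, 16.1% to 17.0% were multiple alignments and 0.187% to 0.210% were ambiguous. These rows stayed out of all totals.

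The main test was edgeR 4.0.16 under R 4.3.3 (TMM scaling, filterByExpr, quasi-likelihood F test for genotype, Benjamini-Hochberg adjustment over 14316 genes, threshold 0.05), with limma 3.58.1 and DESeq2 1.42.0 as alternatives. CPM was computed over TMM-scaled library sizes, with a prior count of 2 on the log2 scale. Each standard error is the fold change divided by the root of its F statistic. Counting intervals are exact Poisson intervals and cover counting error only; 3 reads correspond to 0.134 to 0.213 CPM. Positions and lengths were taken from GENCODE M21 (GRCm38, the assembly behind mm10), over transcripts linked to RefSeq for the lengths; the authors' own gene models may differ. The fit was also run on counts simulated from its own model, with planted changes larger than those of the members. That run does not bear on changes as small as the members' or on the sex difference.

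Genes named were all 10 members, Smarca4 and, from each pathway list, genes past the threshold or else the 2 of highest level, plus up to 3 of lowest p under an unadjusted 0.05. From the marker lists, genes were named where a result needed them. 1 gene that the rule names is not reported here. The members, lists and tests were chosen with earlier results of these data known. Same-numbered libraries deviated together from their group means with a correlation of 0.144 across genes (which are no independent replicates); the series calls the samples paired littermates, so the numbers were read as pairs.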

Additional observations from a re-analysis of the deposited data

How the results depend on the processing

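The count of 9 genes past the threshold became 127 with the replicate block, 30 with DESeq2 and the replicate block, 62 with DESeq2 and 236 without a filter on low counts; leaving out 1 library gave 3 to 443. It was 7 to 9 with RLE or upper-quartile scaling, without the 10 most abundant genes, with a filter of CPM 5 in 2 libraries and with limma-voom. The count of members past the threshold was 0 in each of these settings except without mutant replicate 2, where it was 1, Nfatc4; leaving out 1 library thus gave 0 to 1. The cause was not tested, nor was the part of sex, by which mutant replicate 2 differs from the other libraries.

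Over 9 other settings with all 4 libraries, each of the 10 members kept the sign of its fold change. Leaving out 1 library turned the sign in 11 cases, over 8 members, all of them with fold changes that did not pass. The ranges were -0.53 to 0.10 for Nfatc1, -0.11 to 0.012 for Nfatc3, -0.10 to 0.70 for Nfatc4, -0.078 to 0.23 for Nfat5, -0.084 to 0.28 for Ppp3ca, -0.0062 to 0.094 for Ppp3cb, -0.12 to 0.038 for Ppp3r1 and -0.081 to 0.12 for Rcan1. In those fits the single remaining library was taken to vary as the other genotype did.

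Levels per length depend on the gene model. With the exons of every GENCODE transcript, an alternative chosen after seeing the data, Nfat5, at 20.03 CPM per kb, and Rcan2, at 17.1, stood above Ppp3cb, at 15.2, and Ppp3ca and Nfatc3 were at 10.6 and 8.81; Ppp3r1 and Rcan1 stayed highest and Nfatc1, Nfatc4 and Nfatc2 lowest. RLE scaling left the order as it was. With 2 libraries per genotype, changes within the intervals given remain possible. Each interval covers 1 gene without adjustment, so a larger change could also have missed the adjusted threshold. Akap12, at 0.66 ± 0.12 on the log2 scale, had an edgeR adjusted p of 0.143.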
